A study of Mus musculus with 12 samples.

Results

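The genes described here are 8 parts of the signalling system for extracellular nucleotides and adenosine: the adenosine receptors Adora2a, Adora2b and Adora3, the ATP-gated channels P2rx4 and P2rx7, the nucleotide receptors P2ry2 and P2ry6, and the ectonucleotidase Entpd1. They were found by the gene symbol that the platform annotation gives each probe. Of the 45281 probes on the array, 15 carried a member's symbol: 3 for Adora3, 2 for P2rx4, 5 for P2rx7, 2 for P2ry2, 1 for P2ry6 and 2 for Entpd1. No probe in the annotation used carried the symbol Adora2a or Adora2b, so these receptors were not analysed here. One value had a part in choosing the genes, the difference of Adora3 between cyclodextrin-treated and PBS-treated cells under LPS, and its probe was measured above background mainly on the arrays where it was high. All its differences are therefore described with no test. Counts of calls cover the other members, except where counts under changed processing are said to include Adora3.

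The samples were 12 bead arrays of total RNA from bone marrow-derived macrophages of C57BL/6 mice aged 9 to 16 weeks. All cells had been differentiated for 8 to 9 days in 20% L929-conditioned medium, the supernatant of a fibroblast line that supplies macrophage growth factor. Each group held 3 arrays: cells kept in PBS with no LPS (replicates 1, 2 and 3), cells kept in PBS and given LPS (replicates 7, 8 and 9), cells given HDL and then LPS (replicates 16, 17 and 18, written nHDL in the labels), and cells given cyclodextrin and then LPS (replicates 22, 23 and 24). HDL, the high-density lipoprotein that accepts cholesterol from cells, was used at 300 ug/ml for 24 h. Cyclodextrin, a ring-shaped sugar that extracts cholesterol from membranes, was used at 4% for 4 h. After a wash, LPS, the bacterial lipopolysaccharide recognised by Tlr4, was given at 10 ng/ml for 6 h. The labels give no contact time for PBS, so a compound and its contact time cannot be told apart. No label names the animal or culture behind an array, and p-values therefore measure the spread between these arrays, which may be technical.

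ATP and other nucleotides leave stressed, dying or activated cells and act on P2X channels and P2Y receptors of neighbouring macrophages. Ectonucleotidases such as CD39, the product of Entpd1, strip phosphates from them, and the adenosine that results acts on the Adora receptors, which couple to G proteins and raise or lower cyclic AMP. In macrophages P2X7 is known for driving inflammasome assembly and release of interleukin-1 beta when ATP is high, while the receptors encoded by Adora2a and Adora2b are known for restraining cytokine output after LPS.

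The members lay at 6 places of the genome in pairs or alone (GRCm38.p6, RefSeq). Adora3 lay at chr3:105904421-105908928. P2rx7 (chr5:122643927-122692336) and P2rx4 (chr5:122707518-122729739) followed each other on chromosome 5, and P2ry6 (chr7:100937630-100975498) and P2ry2 (chr7:100996568-101012053) on chromosome 7. Entpd1 lay at chr19:40612366-40741602, Adora2a at chr10:75316877-75334792 and Adora2b at chr11:62248984-62266452.

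P2rx4 was called higher under LPS in the main fit, and Adora3, given with no test, read higher. Their RefSeq promoter windows are shown for that reason. A window runs from 250 bases before to 50 bases after a listed start. For Adora3 this is the first base of the span given above, and for P2rx4 it lies inside that span. Capitals mark letters of a searched motif on either strand.

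Adora3 (GRCm38.p6, chr3:105904171-105904470, plus strand): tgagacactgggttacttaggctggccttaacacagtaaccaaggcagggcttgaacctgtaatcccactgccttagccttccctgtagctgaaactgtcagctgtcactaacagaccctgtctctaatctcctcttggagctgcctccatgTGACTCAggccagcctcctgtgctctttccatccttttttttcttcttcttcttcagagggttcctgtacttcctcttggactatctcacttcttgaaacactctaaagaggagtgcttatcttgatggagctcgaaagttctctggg

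P2rx4 (GRCm38.p6, chr5:122707294-122707593, plus strand): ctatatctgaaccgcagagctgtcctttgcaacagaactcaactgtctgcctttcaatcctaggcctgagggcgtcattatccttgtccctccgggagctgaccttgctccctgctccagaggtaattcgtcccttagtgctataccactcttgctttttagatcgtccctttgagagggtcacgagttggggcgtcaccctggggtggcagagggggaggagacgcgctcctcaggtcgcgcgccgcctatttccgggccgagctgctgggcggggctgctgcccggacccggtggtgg

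The Adora3 window held the AP-1 letters TGACTCA 98 bases before the start, and the P2rx4 window held no motif that was searched. The motifs were NF-kB, AP-1 (TGANTCA), CRE (TGACGTCA), ISRE and E-box (CACGTG). AP-1 letters were in 7.81% of 32851 windows of the same length and in windows of 2 members, Adora3 and P2rx7. E-box letters were in 7.15% of windows and in those of P2ry2. NF-kB letters were in 1.63%, CRE letters in 1.79% and ISRE letters in 3.44% of windows, and in none of the windows of the 6 members that have one in the table, which lists none for P2ry6 and Adora2a. A match describes letters in these windows and does not show binding.

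A probe was taken as detected on an array where its detection p-value, which compares its signal with negative-control beads, was under 0.05, and it was tested where it was detected on at least 3 of the 12 arrays. Of the 15 member probes 8 passed, from 5 genes, beside 18364 of all probes. The other 7 were detected on 0 of 12 arrays. They include both Entpd1 probes, with detection p-values from 0.202 to 0.933, 2 of 3 Adora3 probes, 2 of 5 P2rx7 probes and 1 of 2 P2ry2 probes. For these probes the data give no fold change, and a probe not above background does not show that the gene is silent. All 7 macrophage markers with a probe, among them Adgre1, Csf1r and Mertk, were detected on all 12 arrays, while 0 of 5 dendritic cell markers and 0 of 2 B cell markers with a probe passed. Of the markers of other cells with a probe, 3 of 5 neutrophil (Camp, Ngp, Ltf), 3 of 6 mast cell and basophil (Fcer1a, Kit, Hdc), 2 of 4 fibroblast (Dcn, Lox), 1 of 5 T and NK cell (Prf1), 1 of 4 eosinophil (Ccr3) and 1 of 4 platelet (Pf4) genes passed. Between 33.3% and 38.6% of probes were detected per array, and arrays of 1 group correlated at 0.988 to 0.995.

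**Figure D1:**
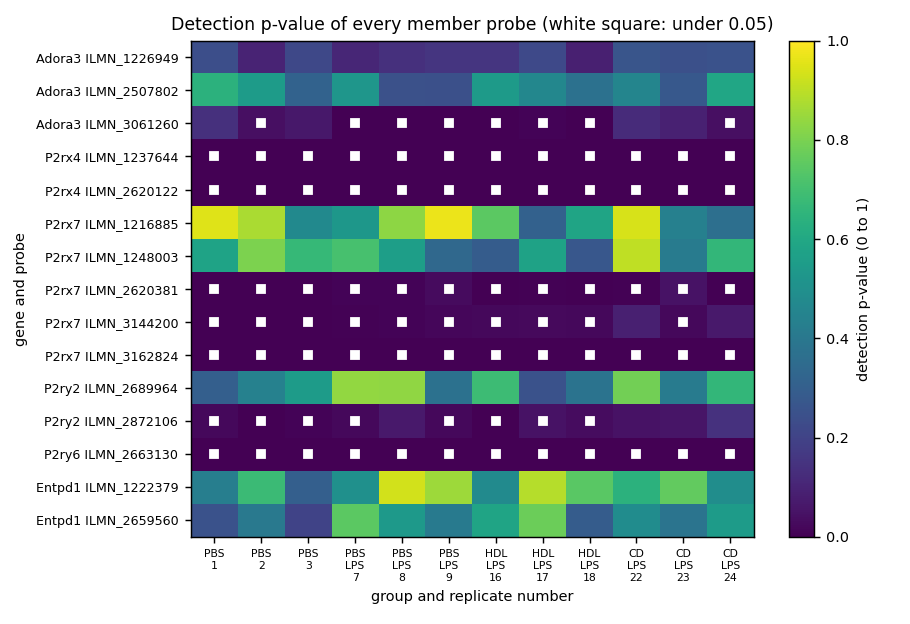
Detection p-value (colour, 0 to 1) of each of the 15 member probes in rows on each of the 12 arrays in columns, labelled by group and replicate. White squares mark values under 0.05: P2rx4, P2ry6 and 2 of the P2rx7 probes are marked on all 12 arrays, and both Entpd1 probes on none.

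Levels are normalized log2 intensities, which serve to compare arrays for 1 probe and not 1 probe with another. Adora3, the receptor that couples mainly to inhibitory G proteins, had the widest range of the 8 probes over the arrays. Its probe ILMN_3061260 read 4.94, 5.24 and 5.14 without LPS and 7.05, 6.55 and 7.06 in PBS cells with LPS. With HDL and LPS it read 6.40, 5.84 and 6.53, and with cyclodextrin and LPS 5.04, 5.22 and 5.48. It was detected on all 6 arrays of PBS or HDL cells with LPS and on 1 of 3 in each of the other groups, so it entered the tests only through the groups where it was high. The order of the groups was PBS with LPS, HDL with LPS, cyclodextrin with LPS, then no LPS, and the ranges of the lower pair of groups overlapped.

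Both P2rx4 probes, which measure a channel that responds to low ATP and resides largely in lysosomes of macrophages, stood on all 12 arrays. ILMN_1237644 read 10.94, 11.54 and 11.33 without LPS and 11.78, 11.58 and 11.71 in PBS cells with LPS. The same probe read 11.77, 11.69 and 12.17 after HDL and 11.67, 11.63 and 11.81 after cyclodextrin. The 3 groups with LPS overlapped one another, and all 9 of their arrays were above the 3 arrays without LPS. ILMN_2620122 read 10.14, 9.89 and 9.93 without LPS, 10.50, 10.45 and 10.33 with LPS, 10.33, 10.37 and 10.80 after HDL, and 10.25, 10.16 and 10.30 after cyclodextrin. Here too every array with LPS was above every array without it, and the 3 cyclodextrin arrays were below the 6 other LPS arrays.

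P2rx7, the channel opened by high ATP, was read by 3 detected probes, which the annotation assigns to different transcripts and whose values are therefore given one by one. ILMN_2620381 read 6.51, 6.18 and 6.24 without LPS, 5.95, 5.82 and 5.49 in PBS cells with LPS, 6.35, 5.87 and 6.02 after HDL, and 6.25, 5.53 and 6.50 after cyclodextrin. Its mean was lowest in PBS cells with LPS, and the 3 groups with LPS overlapped one another. ILMN_3144200 read 6.16, 6.16 and 6.15 without LPS, 6.16, 5.82 and 5.71 with LPS, 5.66, 5.59 and 5.54 after HDL, and 5.15, 5.78 and 5.32 after cyclodextrin, where it was detected on 1 of 3 arrays. Its HDL and cyclodextrin arrays were low and overlapped. ILMN_3162824 stayed between 6.48 and 6.71 on 11 arrays and read 6.06 on HDL replicate 18.

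P2ry2, a receptor for ATP and UTP that couples to phospholipase C, was near background throughout. Its probe ILMN_2872106 read 5.52, 5.65 and 5.57 without LPS, 5.58, 5.17 and 5.61 with LPS, 6.05, 5.32 and 5.42 after HDL, and 5.36, 5.41 and 5.0 after cyclodextrin. It was detected on 3, 2, 3 and 0 of 3 arrays in these groups. The 3 groups with LPS overlapped one another, while the 3 cyclodextrin arrays were below the 3 arrays without LPS. P2ry6, the UDP receptor, was far above background everywhere: ILMN_2663130 read 13.23, 13.14 and 12.97 without LPS, 13.27, 13.41 and 13.22 with LPS, 13.02, 12.98 and 12.92 after HDL, and 12.79, 12.83 and 12.59 after cyclodextrin. The cyclodextrin arrays were the lowest 3, below the HDL arrays, which in turn were below the PBS arrays with LPS, while the groups with and without LPS in PBS overlapped.

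**Figure D2:**
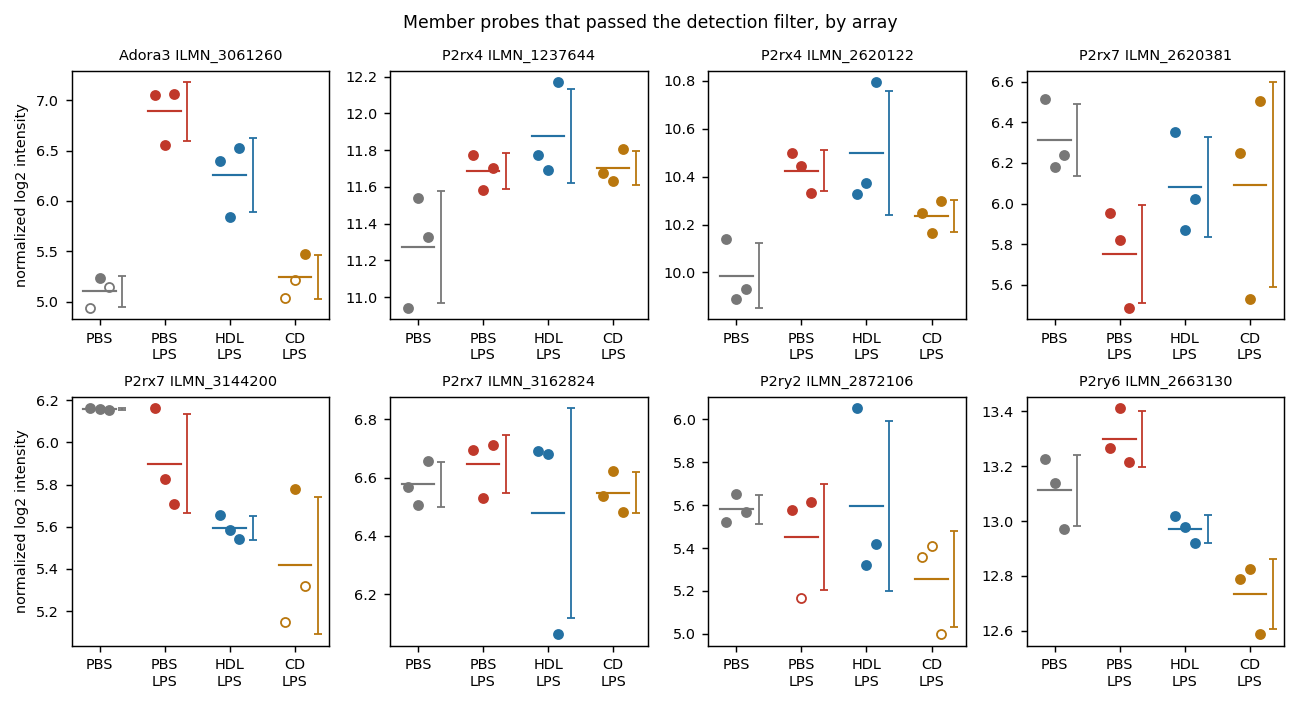
Normalized log2 intensity (y axis, 1 scale per panel) of the 8 detected member probes on each array, by group (x axis, CD for cyclodextrin). Filled points were detected and open points were not, horizontal lines are group means and bars the SD (n = 3). Adora3 is high on the PBS and HDL arrays with LPS, and P2ry6 is lowest on the cyclodextrin arrays.

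The first comparison asked how 6 h of LPS changed these genes in PBS cells. P2rx4 rose on both probes and 1 of 3 P2rx7 probes fell, while P2ry2 and P2ry6 did not pass the test. Beside Adora3, 3 of 7 tested member probes were called at an adjusted p under 0.05 in limma's moderated test, 2 higher and 1 lower, where 56% of all 18364 probes were called, 22.8% higher and 33.2% lower. When arrays were scaled by their medians in place of quantiles, which shifts the median of all probes from -0.09 to -0.37, 0 of the 7 were called higher and 3 lower, all of them P2rx7 probes. The median difference of the 7 probes was 0.07 on the log2 scale, against -0.09 over all probes. The groups did not overlap for 3 of the 7 and for 62.2% of all probes.

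Adora3 read 1.78 higher on the log2 scale with LPS, as a mean over 3 and 3 arrays. Since it was above background on 1 of 3 arrays without LPS, this is stated as at least 3.09-fold higher, the bound being set by the lowest signal among detected probes. Bounds of this kind, here and below, hold for the main processing only. Under other settings the Adora3 difference with LPS was as small as 1.00 on the log2 scale. The PBS arrays with LPS are also those of the difference that led to the gene's choice. Mast cells of the mouse are known to carry Adora3. The summed signal of the 6 genes of the mast cell and basophil list was 579 to 650 without LPS and 4976 to 5691 with LPS, and 1 gene carried it: Hdc was at least 136-fold higher, Kit was at least 3.67-fold lower and Fcer1a gave -0.15 ± 0.22, while Mcpt8, Cpa3 and Mcpt4 were detected on fewer than 3 arrays. Under LPS 4 of 7 macrophage genes, both tested fibroblast genes (Dcn and Lox) and Ccr3 of the eosinophil list were also called higher, and Ltf of the neutrophil list lower. The fibroblast sum was 254 to 277 without LPS and 424 to 443 with it, the eosinophil sum 294 to 359 and 307 to 312, and the neutrophil sum 448 to 494 and 377 to 379. All sums, here and below, are of raw signals with no background correction or normalization, and they include undetected probes. The median raw signal per array was 73.7 to 82.5 without LPS and 71.0 to 71.6 in PBS cells with LPS. The smaller sums are thus in large part background and do not measure cell number. The part of these cells in the result was not tested. In bulk RNA, fewer cells of a type and less RNA per cell cannot be told apart.

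P2rx4 was 0.44 ± 0.13 higher with LPS on ILMN_2620122 (adjusted p = 0.0120) and 0.42 ± 0.16 higher on ILMN_1237644 (adjusted p = 0.0385), both with n = 3 and 3. Under median scaling the differences were 0.17 (adjusted p = 0.287) and 0.28 (adjusted p = 0.130) and neither was called. The call of ILMN_1237644 was also lost without PBS replicate 1 (0.25, adjusted p = 0.179), 3 (adjusted p = 0.0596), 7 (adjusted p = 0.107) or 9 (adjusted p = 0.0859).

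P2rx7 fell by 0.56 on ILMN_2620381 (SE 0.22, n = 3 and 3, adjusted p = 0.0402). The call was lost without PBS replicate 1 (-0.45, adjusted p = 0.136), 2 (adjusted p = 0.0502), 3 (adjusted p = 0.0640), 8 (adjusted p = 0.0647) or 9 (-0.43, adjusted p = 0.158). The other P2rx7 probes gave -0.26 ± 0.16 (ILMN_3144200, adjusted p = 0.177) and 0.07 ± 0.15 (ILMN_3162824, adjusted p = 0.730), and under median scaling -0.63 (adjusted p = 0.00108) and -0.38 (adjusted p = 0.0479), the latter with its sign turned. Whether the 3 probes differ in their response was not tested. P2ry6 gave 0.19 ± 0.12 (adjusted p = 0.187) and P2ry2 -0.13 ± 0.19 (adjusted p = 0.594), with 95% intervals from -0.06 to 0.43 and from -0.53 to 0.27.

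The second comparison asked whether HDL before LPS changed them. Beside Adora3 no member probe was called, 0 of 7 by limma, where 0.86% of all probes were called, 0.359% higher and 0.501% lower, and 1 of 7 had an unadjusted p under 0.05, against 15.8% of all probes. That probe was P2ry6, which gave -0.33 ± 0.12 (n = 3 and 3, adjusted p = 0.180, 95% interval -0.57 to -0.08) with no overlap of the arrays. With ILMN_3144200 of P2rx7 (-0.30 ± 0.16, adjusted p = 0.36), 2 of 7 probes had groups that did not overlap, against 24% of all probes. Adora3 read 0.63 lower on the log2 scale after HDL, 1.55-fold, with no overlap of the arrays, and this rests on the same PBS arrays with LPS that led to its choice. The remaining 5 probes lay between -0.17 and 0.33, with adjusted p-values from 0.480 to 0.829. The median of the 7 was 0.07, against -0.00 over all probes. The summed signal of the mast cell and basophil list after HDL, 4492 to 6625, overlapped its range in PBS cells with LPS.

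The third comparison asked the same of cyclodextrin. P2ry6 fell by 0.57 on the log2 scale (SE 0.12, n = 3 and 3, adjusted p = 0.0150), which is 1.48-fold lower than in PBS cells with LPS. Its call was lost without PBS replicate 7 (-0.58, adjusted p = 0.0508), PBS replicate 8 (-0.51, adjusted p = 0.0746) or cyclodextrin replicate 24 (-0.49, adjusted p = 0.0691), and under median scaling the difference was -0.67 where the median of all probes was -0.11. Adora3, chosen on this difference, was 1.64 lower on the log2 scale, at least 2.71-fold under the main processing, with a level that overlapped that of cells without LPS. Under other settings its difference was as small as -0.93. P2ry6 was the 1 of 7 other member probes called, where 3.97% of all probes were called, 1.86% higher and 2.11% lower.

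P2rx7 on ILMN_3144200 was 0.48 ± 0.16 lower after cyclodextrin and missed the threshold (adjusted p = 0.107, 95% interval -0.82 to -0.15), while ILMN_2620381 of the same gene gave 0.34 ± 0.22 (adjusted p = 0.449). The first of these was called without cyclodextrin replicate 23 (-0.68, adjusted p = 0.0237). P2rx4 gave 0.02 ± 0.16 (adjusted p = 0.972) and -0.19 ± 0.13 (adjusted p = 0.507), the second with no overlap of the arrays, and P2ry2 -0.20 ± 0.19 (adjusted p = 0.637). Groups did not overlap for 2 of the 7, P2ry6 and ILMN_2620122 of P2rx4, against 24.9% of all probes, and the median of the 7 was -0.19 against -0.01. The share of probes detected was also lower on these arrays, 33.3% to 35.2% against 36.4% to 36.9% in PBS cells with LPS, and its part in these differences was not tested. The summed signal of the mast cell and basophil list was 4543 to 5317 after cyclodextrin, which overlapped its range in PBS cells with LPS. In the fibroblast list Dcn, 1 of 2 tested genes, was called lower. The other, Lox, gave 0.44 ± 0.14 (adjusted p = 0.107), higher with no overlap of the arrays but not called. Col1a1 and Col3a1 were not tested for want of detection, and the summed signal of the 4 genes was 428 to 535 against 424 to 443. Other markers not called but with no overlap were all lower. They were Ccr3 (-0.57 ± 0.17, adjusted p = 0.0723) and Pf4 (-0.42 ± 0.14, adjusted p = 0.111). The macrophage genes Itgam (-0.34 ± 0.15, adjusted p = 0.238) and Fcgr1 (-0.37 ± 0.15, adjusted p = 0.215) were the rest.

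**Figure D3:**
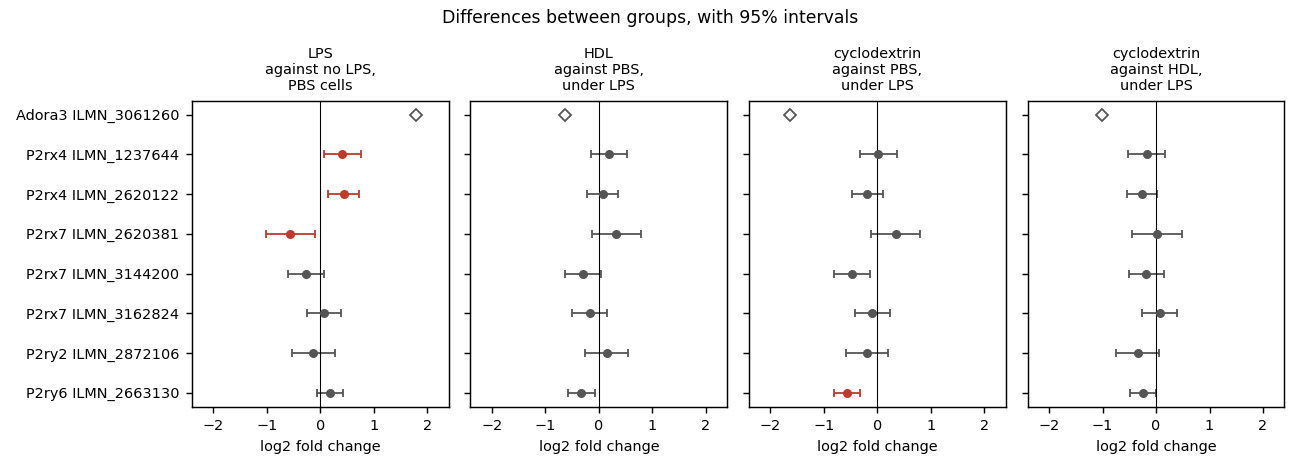
Log2 fold change (x axis) of the 8 detected member probes (rows) in the 4 comparisons (panels), with 95% intervals from limma (n = 3 and 3). Red points were called at an adjusted p under 0.05 and open diamonds are the Adora3 values, given with no test or interval. P2rx4 lies right of 0 under LPS, a difference that keeps its sign but is not called under median scaling, and P2ry6 lies left of 0 under both HDL and cyclodextrin.

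Cyclodextrin and HDL were given at different doses and for different times, so their values stand side by side. Adora3 was 1.01 lower on the log2 scale after cyclodextrin than after HDL, at least 1.75-fold under the main processing, with no overlap of the arrays. Under other settings this difference was as small as -0.53. It rests on the same cyclodextrin arrays as the difference that led to the gene's choice. Of the 7 other member probes limma called 0, and 0 had an unadjusted p under 0.05, where 1.84% of all probes were called, 0.811% higher and 1.03% lower, and 17.7% had such a p. P2ry6 was 0.24 ± 0.12 lower (adjusted p = 0.30, 95% interval -0.49 to 0.01) and ILMN_2620122 of P2rx4 0.26 ± 0.13 lower (adjusted p = 0.333), both with no overlap of the arrays. They make 2 of 7 probes with groups apart, against 22.8% of all probes. P2ry2 gave -0.34 ± 0.19 (adjusted p = 0.364), and the other 4 member probes lay between -0.18 and 0.07. The marker genes of other cells that were called here were lower, while some that were not called were higher. Ccr3, the 1 of 4 eosinophil genes tested, was called lower, and the list's summed signal was 268 to 310 after cyclodextrin and 325 to 346 after HDL. Pf4, the 1 of 4 platelet genes tested, was called lower, with sums of 6031 to 6273 and 8372 to 11883. In the fibroblast list Dcn was called lower and Lox, the other tested gene, gave 0.13 ± 0.14, with sums of 428 to 535 and 462 to 560. Prf1 of the T and NK cell list gave 0.48 ± 0.14 (adjusted p = 0.0975), with no overlap of the arrays. In the mast cell and basophil list Fcer1a gave 0.70 ± 0.22 (adjusted p = 0.110), also with no overlap, Kit -0.06 and Hdc -0.13. That list's sums, 4543 to 5317 after cyclodextrin and 4492 to 6625 after HDL, overlapped. The other eosinophil markers (Prg2, Epx, Siglecf) and platelet markers (Ppbp, Itga2b, Gp9) were detected on fewer than 3 arrays, and the part of these cells in the Adora3 value was not tested.

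The genes with the most similar profiles over the 12 arrays, by root mean square difference of centred log2 values among 9794 other genes, are given as a description. For Adora3 they were Il4ra (0.33), Med29 (0.34) and Selp (0.38). For P2rx4 they were Hgs, Sec24c and Mtor (0.10 to 0.11), for P2rx7 on ILMN_3162824 Ndufaf3, Bicral and Slc44a2 (0.089 to 0.11), for P2ry2 Olfr166, Tmem231 and 2700097O09Rik (0.17 to 0.18), and for P2ry6 Iffo2, Irf2bpl and Rmc1 (0.12 each). The members' own spread on this scale was 0.77 for Adora3, 0.28 for P2rx4, 0.17 for P2rx7, 0.25 for P2ry2 and 0.22 for P2ry6, so the distances do not rank the likeness between members.

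The wider purinergic system was read by 1 probe per gene, the brightest that passed. Of 8 P2Y receptors 6 were tested, and 2 rose and 1 fell under LPS, with a median of 0.14. P2ry1, an ADP receptor, read 8.89, 8.52 and 8.56 without LPS and was detected on 0 of 3 arrays of PBS cells with LPS. That is at least 10.5-fold lower under the main processing, and the log2 difference ranged from -4.19 to -2.62 under other settings. It passed the filter only through the arrays without LPS, where it was high, so no p-value is given for this difference. P2ry14, the receptor for UDP-glucose, read 10.38, 9.80 and 10.32 and then 12.61, 12.69 and 12.85, which is 2.55 ± 0.17 higher (adjusted p = 6.44e-09), and all 3 of its tested probes were called. P2ry13, another ADP receptor, was 0.90 ± 0.22 higher (adjusted p = 0.00328), and 0.50 higher under median scaling (adjusted p = 0.0497). Among 7 P2X channels only P2rx4 and P2rx7 passed the filter, with P2rx4 the 1 called under LPS on its brightest probe. The P2rx7 probe called lower under LPS, ILMN_2620381, was not the brightest of that gene. Of 8 ectonucleotidases 2 were tested, Entpd8 and Alpl, and neither was called in any comparison.

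Among 8 tested genes of nucleoside handling 3 rose and 2 fell under LPS. Slc28a2, a concentrative nucleoside transporter, was 4.24 ± 0.17 higher (adjusted p = 2.78e-11), reading 6.41, 6.47 and 6.12 without LPS and 10.71, 10.47 and 10.55 with it. Pnp, which breaks down inosine and guanosine, was not detected without LPS and was at least 2.72-fold higher under the main processing. Its log2 difference ranged from 1.14 to 1.99 under other settings. It was detected only on arrays with LPS, where it was high, so no p-value is given. The transporter Slc29a3 was 0.70 ± 0.16 higher (adjusted p = 0.00153), and Adk, which phosphorylates adenosine, gave -0.59 ± 0.12 on the brightest of its 3 probes (adjusted p = 7.95e-04), all of which were called lower. Of the 4 genes of nucleotide release, the connexin Gja1 was 2.80 ± 0.18 higher (adjusted p = 6.65e-09), and the pannexin Panx1 (-1.58 ± 0.20, adjusted p = 8.48e-06) and the vesicular nucleotide transporter Slc17a9 (-1.40 ± 0.15, adjusted p = 1.18e-06) were lower.

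Of 15 tested genes of G protein and cyclic AMP coupling 5 rose and 7 fell under LPS. The phosphodiesterase Pde4b was 4.25 ± 0.12 higher (adjusted p = 3.61e-13) and the G protein subunit Gna15 1.73 ± 0.13 higher (adjusted p = 2.83e-08). Pde4a, a relative of Pde4b, was at least 2.39-fold higher under the main processing. Its log2 difference ranged from 1.07 to 1.85 under other settings. It was detected only on arrays with LPS, where it was high, so no p-value is given. The adenylate cyclase Adcy9 was at least 6.08-fold lower under the main processing (adjusted p = 3.71e-08) and was detected on 2 of 3 arrays of PBS cells with LPS. Its log2 difference ranged from -3.01 to -1.73 under other settings. The counts of all these lists under LPS are to be read against the 56% of probes called. They include P2ry1, Pnp and Pde4a, which passed the filter only through arrays where they were high. With 1 probe per gene over the whole array, 5932 of 9795 genes were called. Of the 23 genes outside the members called under LPS in these lists, 20 stayed called in all alternatives. Gnas, a G protein subunit, lost its call in 9 of 12 omissions of an array (adjusted p 0.0528 to 0.178), with no filter (adjusted p = 0.0937) and with array weights (adjusted p = 0.166). Slc29a2, a nucleoside transporter, lost it in 3 omissions, with no filter (adjusted p = 0.0686) and with an offset of 50 (adjusted p = 0.0587), and Crem under median scaling (0.38, adjusted p = 0.0546).

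Beside Adora3, limma called 0 of the tested genes of these lists under HDL, where 0.86% of all probes were called. Of the 38 tested genes of these lists, members included, 2 outside the members were called after cyclodextrin. Of all probes 3.97% were called there, and 497 of 9795 genes with 1 probe per gene over the whole array. P2ry1 read 4.72, 4.71 and 4.86 in PBS cells with LPS, where no array detected it, and 5.58, 5.14 and 5.50 after cyclodextrin, where 2 of 3 did, which is at least 1.10-fold higher (adjusted p = 0.0200). Crem, a cyclic AMP-responsive transcription factor, read 6.92, 6.92 and 7.31 and then 7.72, 7.72 and 8.10, which is 0.79 ± 0.16 higher (adjusted p = 0.0145), with 2 of its 3 probes called. The call of P2ry1 was lost without PBS replicate 7 (adjusted p = 0.0798) or 8 (adjusted p = 0.0784) or cyclodextrin replicate 22 (adjusted p = 0.0775) or 24 (adjusted p = 0.0759), or with an offset of 50 (0.32, adjusted p = 0.0960), and that of Crem without PBS replicate 7 (adjusted p = 0.0687) or 8 (adjusted p = 0.0666) or cyclodextrin replicate 24 (adjusted p = 0.0650).

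**Figure D4:**
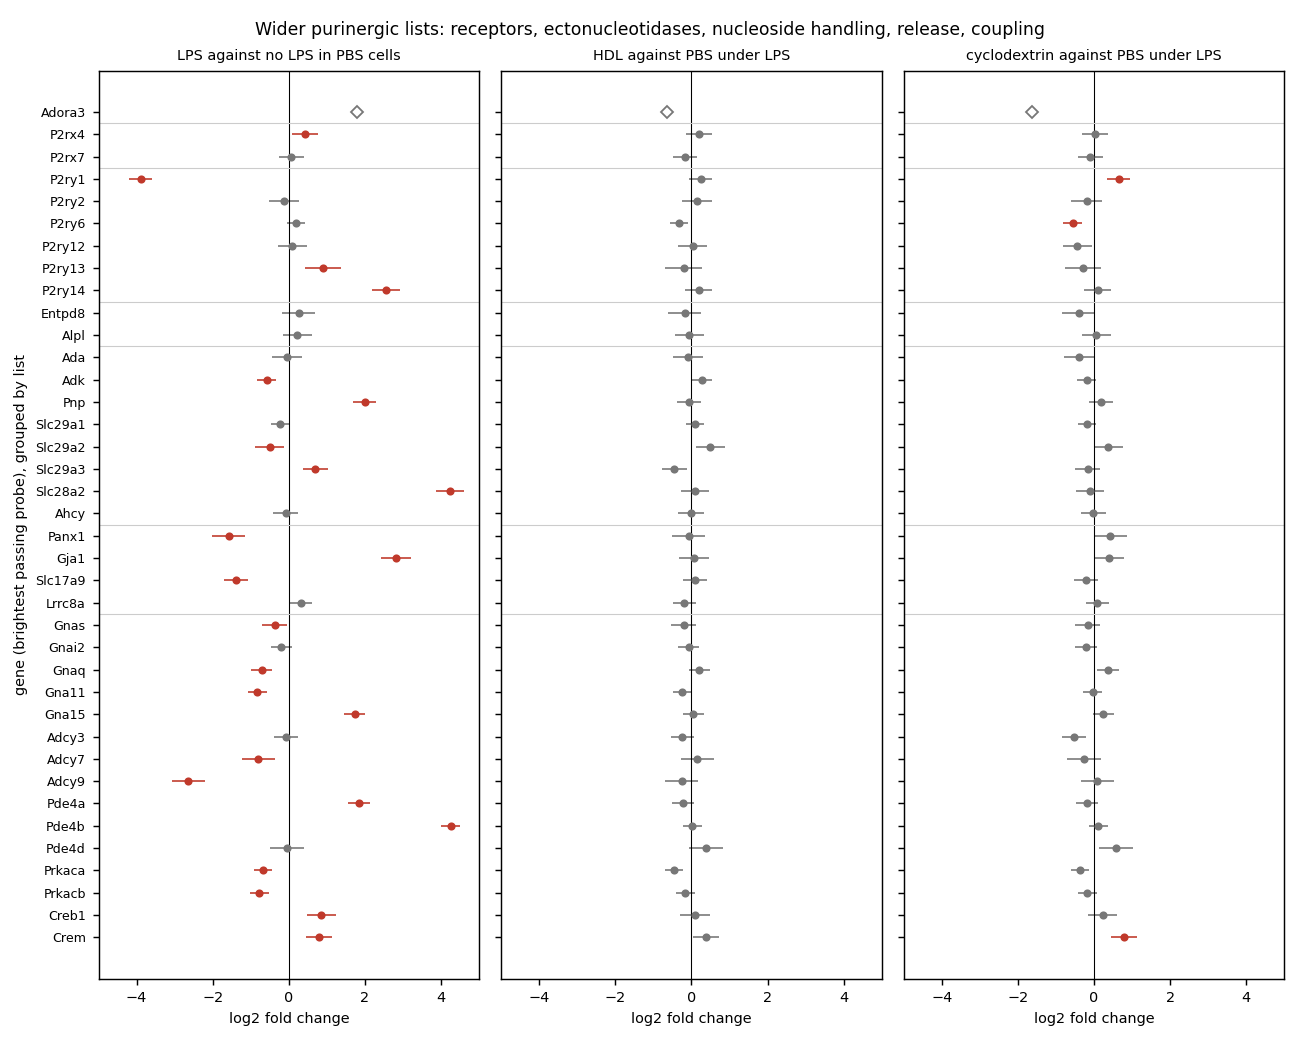
Log2 fold change (x axis) of the tested genes of the purinergic lists (rows, 1 probe per gene, grouped by list) for LPS, HDL and cyclodextrin, with 95% intervals (n = 3 and 3). Red points were called and the open diamonds are Adora3 with no test. Slc28a2 and Pde4b are highest and P2ry1 lowest under LPS, and no gene is called under HDL. P2ry1, Pnp and Pde4a passed the filter only through arrays where they were high.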

How the data were processed

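Total RNA of 12 samples was hybridised to single-colour Illumina bead arrays. The authors' deposited table holds probe intensity and a detection p-value from GenomeStudio, per the submitters' processing notes, version not given, with nothing said of background handling. Most deposited intensities had lost their decimal mark. The mark was put back from the detection p-value and number of digits for 77.1% of 543372 values. For 16.5% it came from the same digits on another array in the authors' processed table. For 4.43% it came from each array's curve of processed value against signal, and 2.00% had kept it. As a check, 6289 values were hidden, a random part of the bright signals whose mark had been kept or already placed by digits. All came back at the same place, but where the mark had been placed, this compares the rule with its own placement. The check tests the routes through shared digits and the curve, and the rule's floor was set while it was in use. Of the 180 member values 6 came from the curve. The planned tests assumed intact intensities and were run on the rebuilt ones.

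Log2 intensities came from neqc in limma 3.58.1 (R 4.3.3, offset 16), which corrects background through detection p-values and quantile-normalizes. Probes detected (p under 0.05) on at least 3 of 12 arrays, 18364 in all, entered 1 model with 4 group means (lmFit, eBayes, 8 residual and 6.20 prior degrees of freedom), two-sided, with Benjamini-Hochberg adjustment over all of them. Precision is limited by the number of arrays. Of the probes 34885 had 1 symbol, 18 several and 10378 none listed. The fits were tested on simulated data. Tables and figures used Python 3.11.15.

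Named were every member probe, the 4 genes of each list with the largest change among those called, and the 3 nearest profiles per member. The members and lists were chosen with earlier results of these data known, so patterns already seen are not independent support. Alternatives covered scaling, background correction, offset, filter, array weights, the arrays fitted, 1 probe per gene, the authors' processed values and omission of each array.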

Additional observations from a re-analysis of the deposited data

How the results depend on the processing

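Of 604 alternative values of the 28 member results without Adora3, 583 kept their side of the threshold, 15 of these with a sign that turned while uncalled in both, 16 lost the call, 4 gained it and 1 turned sign with a call: P2rx7 on ILMN_3162824 under LPS was -0.38 with median scaling. The Adora3 difference under LPS ranged from 1.00 to 1.96. The number of member probes past the threshold, with Adora3 counted where it passes, is given only to show how it moves, and tests nothing about Adora3. Under LPS it was 4, 2 with no detection filter or with 1 probe per gene, and 2 to 4 with 1 array left out (2 without PBS replicate 1, 3 or 9). For cyclodextrin against PBS it was 2, and 1 to 3 with 1 array left out. Against HDL it was 1, and 0 with no filter or with only the groups compared. With 1 array left out it was 0 to 1 (0 without HDL replicate 16 or 18 or cyclodextrin replicate 22 or 23). That 1 probe was Adora3, chosen on its cyclodextrin difference, so this movement is no test of it. Without Adora3 the main counts were 3 of 7 under LPS, 1 of 7 for cyclodextrin against PBS and 0 of 7 against HDL. Of all probes, 56%, 3.97% and 1.84% were called in these comparisons. P2ry6 under LPS was called with array weights (0.30, adjusted p = 0.0138), as was P2rx7 on ILMN_3144200 under cyclodextrin (-0.51, adjusted p = 0.0443). Without the filter, ILMN_1237644 of P2rx4 (adjusted p = 0.0835) and ILMN_2620381 of P2rx7 (adjusted p = 0.120) lost their LPS calls. The causes were not tested.

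Over all probes, LPS calls were 10276, and 5932 genes with 1 probe per gene, where fewer features are tested. HDL calls were 158, and 329 without background correction, 327 with normexp, 329 on the authors' processed values, 274 with an offset of 50, 568 with array weights, 99 with no filter, 47 with only the groups compared, and 39 to 199 with 1 array left out. Cyclodextrin calls against PBS were 729, 1241 with array weights, and 266 to 844 with 1 array left out. Against HDL they were 338, 1076 with median scaling, 60 with only the groups compared, and 118 to 440 with 1 array left out. Median scaling moved the median difference of all probes from -0.09 to -0.37 under LPS, from -0.01 to -0.11 for cyclodextrin against PBS and from 0.00 to -0.14 against HDL. It moved the share of calls that were higher from 40.7% to 24.0%, from 46.9% to 16.1% and from 44.1% to 7.53%, and for HDL against PBS from 41.8% to 54.5%.

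No paired analysis was possible because the groups share no replicate numbers. A slide block was not run because the headers give no slide. Probes near background, such as those of P2ry2 and Adora3, are limited by signal over background.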
